A study of Mus musculus with 10 samples.

Results

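The membrane-spanning 4-domains subfamily A (MS4A) genes encode small proteins that cross the cell membrane 4 times, and 6 of them, Ms4a4a, Ms4a4c, Ms4a6b, Ms4a6c, Ms4a6d and Ms4a7, were followed here across 3 groups of sorted mouse macrophages. The 6 genes were chosen by symbol from the 12535 rows of the FPKM table. All 6 passed the filter on low values and were among the 11127 genes tested. RNA-seq was done on 10 libraries of cells sorted as CD45+CD11b+F4/80+. Resident macrophages were taken from wild-type C57BL/6 mice with a healthy pancreas (n = 4). Control tumour-associated macrophages (control TAM, n = 3) came from Ahr fl/fl mice whose pancreas had received the KPC organoid line MT4, a pancreatic ductal adenocarcinoma model, 14 days earlier. The third group (cKO-labelled TAM, n = 3) came from Ahr fl/fl mice with the same tumours that were labelled Lys M, a Cre driver of the lysozyme locus Lyz2, active in myeloid cells, that is intended to remove Ahr, the gene of the aryl hydrocarbon receptor. All tumours stem from 1 organoid line, and resident and TAM libraries differ in genotype as well as in tissue state.

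MS4A proteins sit in the plasma membrane as small 4-pass proteins, often beside signalling receptors, and the family holds the B cell antigen CD20 (Ms4a1) and the beta chain of the high-affinity IgE receptor (Ms4a2). In macrophages Ms4a4a lies in lipid rafts and binds dectin-1, the beta-glucan receptor encoded by Clec7a. Ms4a7 is widely used as a marker of mature and tissue macrophages, Ms4a4c is found in monocytes, and Ms4a6d and Ms4a6b have been described in macrophages and in T cells, respectively.

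The 6 genes lie within 283.811 kb of chromosome 19 (GRCm38, GENCODE M21), all protein-coding. In order along the chromosome they are Ms4a7 (ENSMUSG00000024672, chr19:11321039-11336146, minus strand), Ms4a4a (ENSMUSG00000101389, chr19:11375523-11392790, plus), Ms4a4c (ENSMUSG00000024675, chr19:11404770-11427246, plus), Ms4a6c (ENSMUSG00000079419, chr19:11469366-11482192, plus), Ms4a6b (ENSMUSG00000024677, chr19:11516512-11531256, plus) and Ms4a6d (ENSMUSG00000024679, chr19:11586604-11604849, minus). Thus 4 of the 6 are read on the plus strand, and Ms4a7 and Ms4a6d, at the outer ends, on the minus strand. With their further relatives the Ms4a-named genes of this region number 19 over 678.559 kb, of which 9 were tested.

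RefSeq promoter windows (GRCm38.p6, the bases before the start site, 5′ to 3′ on the gene's strand) were found for 5 of the 6 genes, all but Ms4a6d. The window of Ms4a7 (chr19:11336147-11336396, minus strand) is shown because that gene differed most between the TAM groups, and that of Ms4a4c (chr19:11407411-11407660, plus strand) because it differed most between tumour and healthy pancreas. Ms4a6c (chr19:11469118-11469365, plus strand) and Ms4a6b (chr19:11518309-11518452, plus strand) are shown because they share sequence although they differed in opposite directions in the tumour. Their windows were shortened to leave out annotated exon bases. The RefSeq start sites of Ms4a4c (11407661) and Ms4a6b (11518559) lie inside the GENCODE gene spans given above. The windows of these genes are thus not upstream of their GENCODE starts. Ms4a7 has a further RefSeq window (chr19:11334696-11334945), inside its GENCODE span, that is not shown.
Ms4a7: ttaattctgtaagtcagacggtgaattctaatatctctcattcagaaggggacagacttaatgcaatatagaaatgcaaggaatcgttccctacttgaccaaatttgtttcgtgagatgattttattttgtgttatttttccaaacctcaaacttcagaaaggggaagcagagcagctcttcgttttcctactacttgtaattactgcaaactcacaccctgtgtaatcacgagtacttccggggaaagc
Ms4a4c: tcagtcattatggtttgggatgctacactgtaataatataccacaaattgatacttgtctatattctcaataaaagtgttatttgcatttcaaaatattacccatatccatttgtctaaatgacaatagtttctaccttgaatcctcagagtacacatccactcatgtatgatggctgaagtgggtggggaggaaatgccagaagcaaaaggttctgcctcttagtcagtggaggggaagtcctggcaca
Ms4a6c: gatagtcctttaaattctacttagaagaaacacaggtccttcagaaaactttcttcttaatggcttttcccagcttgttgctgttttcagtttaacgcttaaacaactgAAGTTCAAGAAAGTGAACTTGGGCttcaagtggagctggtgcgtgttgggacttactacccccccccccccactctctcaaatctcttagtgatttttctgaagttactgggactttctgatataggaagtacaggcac
Ms4a6b: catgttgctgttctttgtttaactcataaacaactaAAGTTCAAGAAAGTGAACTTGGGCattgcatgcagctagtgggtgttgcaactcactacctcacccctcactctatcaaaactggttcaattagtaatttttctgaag
Capitals mark the longest run shared by the shortened Ms4a6c and Ms4a6b windows, 24 bases, which starts 141 bases before the start site of Ms4a6c and 214 before that of Ms4a6b. Around it the 2 shortened windows align over 144 columns, 77.8% of them identical. The full windows of 250 bases share a longer run of 48 bases, which the shortening of the Ms4a6b window cut. That run starts 49 bases before the start site of Ms4a6c and 118 before that of Ms4a6b. The full windows align over 180 columns, 82.2% of them identical. On both strands, the core of the xenobiotic response element bound by the aryl hydrocarbon receptor, GCGTG, was found only in the window of Ms4a6c among the 5 genes, 101 bases before the start site. Of all 32851 RefSeq promoter windows of that length, 28.2% hold this motif. The interferon-stimulated response element core (GAAA, any 2 bases, GAAA, in 2.98% of all windows) was found in none of the members' windows. Nor were GAGGAAGT, a strict form of the PU.1 site (2.44%), and the gamma-activated sequence TTCNNNGAA (7.02%). The shorter run GAGGAA, which was not searched for, does occur in the Ms4a4c window shown.

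Recovered depth ran from 10313228 to 26455679 reads per library, the least in control TAM replicate 2 and the most in cKO-labelled TAM replicate 3. All 13 listed macrophage genes were in the table, and the gene of F4/80, Adgre1, had a resident mean of 706 ± 14.9 FPKM (SD, n = 4), against 590 ± 2.78 for control TAM (n = 3) and 497 ± 7.72 for cKO-labelled TAM (n = 3). At a limma adjusted p under 0.05, 5 of the 13 were higher and 8 lower in control TAM than in resident macrophages (39.0% and 38.1% of all genes). In cKO-labelled against control TAM 4 were higher and 7 lower (20.5% and 19.1% of all genes), with Lyz2 lower (log2 change -0.80). The 4 higher genes were C1qa, C1qb, C1qc and Spi1. The summed FPKM of the 13 was 66.5% of the resident mean for control and 52.3% for cKO-labelled TAM. Lyz2, the locus of the Cre driver, and C1qb were the 2 most abundant of the 13 and weigh most in this sum. The part of the Cre allele in the lower sum was not tested. The targeted gene Ahr read 3.84, 4.46, 4.29 and 4.16 FPKM in the resident group, 7.11, 6.91 and 7.51 for control TAM, and 10.2, 11.2 and 9.65 in the cKO-labelled group. An FPKM over the whole gene includes exons that the deletion leaves in place and does not check it, so the group is called by its label. P-values below measure the spread between these libraries only.

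All 6 genes were expressed in every library, and their order changed between the healthy pancreas and the tumour. Levels between genes are compared in FPKM, which is per kilobase of gene. In resident macrophages Ms4a4a was highest at 293 ± 24.0 FPKM (SD, n = 4), above 98.4% of the genes tested. Ms4a6d (195 ± 4.42 FPKM), Ms4a6c (129 ± 3.81), Ms4a7 (97.5 ± 3.18) and Ms4a6b (89.0 ± 4.30) followed, and Ms4a4c was last at 9.67 ± 0.817 FPKM. Of the neighbours in that order only Ms4a7 and Ms4a6b came close, with the lowest Ms4a7 library at 93.6 and the highest Ms4a6b library at 92.9 FPKM. In control TAM the order was Ms4a6d (343 ± 9.80 FPKM, n = 3), Ms4a4a (241 ± 5.93), Ms4a6c (169 ± 2.58), Ms4a4c (93.8 ± 7.28), Ms4a6b (65.2 ± 1.51) and Ms4a7 (23.0 ± 1.09), with no overlap between neighbours. In cKO-labelled TAM it was Ms4a6d (394 ± 16.7 FPKM, n = 3), Ms4a4a (269 ± 13.3), Ms4a6c (164 ± 4.49), Ms4a4c (105 ± 5.40), Ms4a6b (72.2 ± 2.87) and Ms4a7 (69.8 ± 1.68). The last pair did not differ beyond its spread, with libraries of 69.0, 73.3 and 74.4 FPKM for Ms4a6b and 67.9, 70.7 and 70.9 for Ms4a7. Within a group the coefficient of variation of the 6 genes was between 1.52% and 8.45%.

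**Figure D1:**
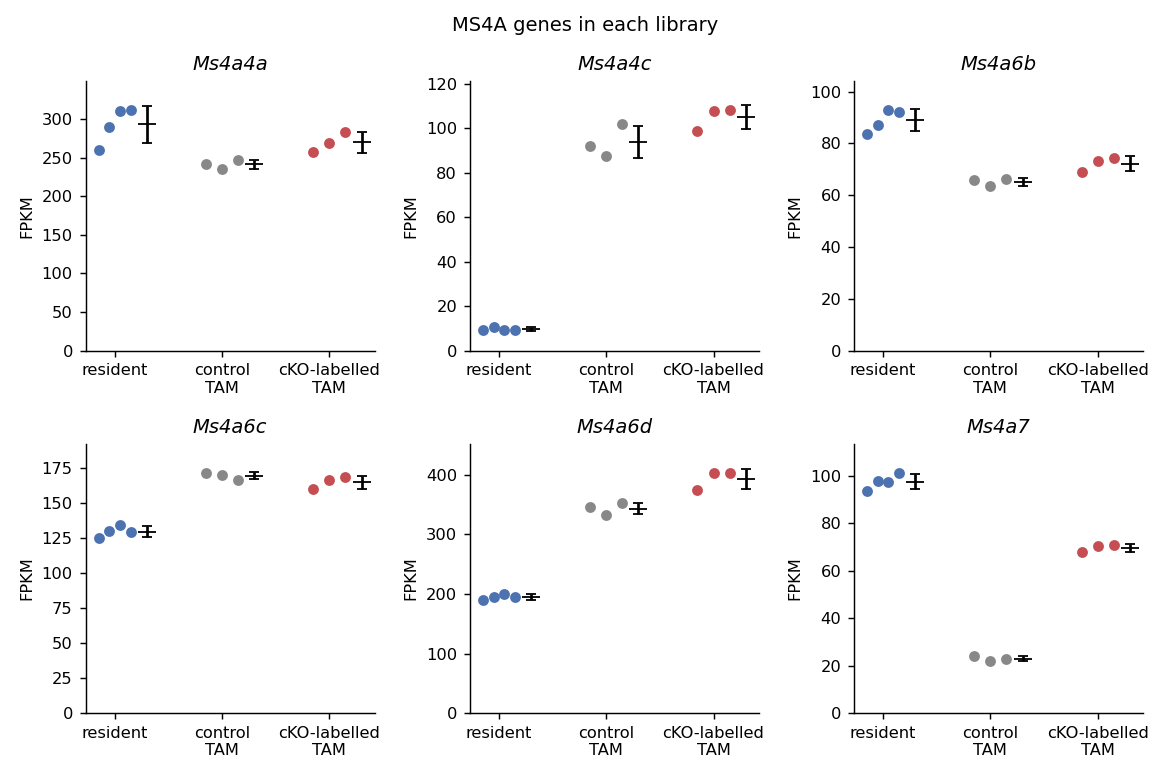
FPKM of each of the 6 MS4A genes (1 panel per gene, y axis from 0) in every library of resident macrophages, control TAM and cKO-labelled TAM; points are libraries, and the bar beside them is the mean with its SD. Ms4a4c is near 10 FPKM only in resident libraries, and Ms4a7 is lowest in control TAM, at 22.1 to 24.2 FPKM.

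The comparison of control TAM with resident macrophages asked how the family differs between tumour and healthy tissue, and the 6 genes split evenly. Ms4a4c, Ms4a6d and Ms4a6c were higher in control TAM, and Ms4a7, Ms4a6b and Ms4a4a were lower, each past a limma adjusted p of 0.05 (fitted on log2(FPKM + 1), adjusted over all genes tested). Thus 3 of 6 were called higher, where 39.0% of all genes were, and 3 lower, where 38.1% were. For none of the 6 did the libraries of the groups overlap, which held for 73.9% of all genes. The count of called members, 6 of 6 against 77.1% of all genes, is thus near the background, and the sizes and directions are what set the members apart from each other.

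Ms4a4c had the widest difference. Its resident libraries stood at 9.16, 10.9, 9.50 and 9.15 FPKM and its control TAM libraries at 91.8, 87.7 and 101.8 FPKM. Every tumour library was far above every resident one, and the mean was 9.69-fold higher (log2 change 3.15 ± 0.06, SE, adjusted p = 1.33e-16). Its change ranked 123 among the 11127 genes when ordered from the highest. The resident values rest on about 198 to 237 reads per library, the fewest of any member. Of the 50-base windows of its transcript, 8.48% also occur in other genes, nearly all of them in Ms4a4b, whose own level was 1.19 ± 0.183 FPKM in resident macrophages and 1.43 ± 0.106 in control TAM.

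Ms4a6d and Ms4a6c rose by less. Ms4a6d, which encodes a protein described together with MHC class II on macrophages, gave 189.5, 195.4, 200.3 and 195.1 FPKM in the resident libraries and 345.3, 332.9 and 352.3 FPKM in those of control TAM. The tumour values were 1.76-fold the resident mean, with a log2 change of 0.81 ± 0.03 (adjusted p = 2.36e-12). Ms4a6c went from 124.8, 129.9, 134.1 and 129.1 FPKM to 171.4, 169.7 and 166.4. All 3 tumour libraries lay above all 4 resident libraries, with a log2 change of 0.38 ± 0.03 (adjusted p = 2.19e-08). The antisense transcript BE692007 covers 55.4% of the 50-base windows of Ms4a6c, and the libraries carry no strand, so reads of the pair cannot be told apart. The listed level of BE692007 was 9.40 ± 0.842 FPKM in resident macrophages and 5.86 ± 0.123 in control TAM. Over the shared stretch it cannot be separated from the level of Ms4a6c.

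Ms4a7 fell the most. This macrophage marker gene gave 93.6, 97.7, 97.5 and 101.4 FPKM in the resident libraries but 24.2, 22.1 and 22.7 FPKM in those of control TAM. The tumour libraries held 23.6% ± 1.11 of the resident mean (SD, n = 3), and the log2 change was -2.04 ± 0.04 (adjusted p = 1.58e-16). In absolute size that was more than the change of 95.0% of the genes tested. No 50-base window of its longest protein-coding transcript, of 1576 bases, occurs in another gene. Its longest annotated transcript, of 3607 bases, was not searched. In these bulk libraries fewer cells that express a gene and less RNA per cell cannot be told apart.

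Ms4a6b and Ms4a4a were lower by smaller steps. Ms4a6b fell from 83.8, 87.1, 92.9 and 92.1 FPKM to 65.9, 63.5 and 66.3 (log2 change -0.44 ± 0.04, adjusted p = 8.94e-08). Ms4a4a, the dectin-1 partner, gave 259.9, 290.0, 309.8 and 311.6 FPKM in the resident libraries and 241.2, 235.3 and 247.2 FPKM in those of control TAM. Resident replicate 1 was the lowest of its group and still above the tumour libraries (log2 change -0.28 ± 0.05, adjusted p = 0.000199). The call for Ms4a4a was lost when each library was rescaled to the same total FPKM (log2 change -0.063, adjusted p = 0.317), which moves the median change of all genes to 0.18. At a limit of 2-fold, 1 member was higher (Ms4a4c), where 9.98% of all genes were, and 1 was lower (Ms4a7), where 6.95% were.

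**Figure D2:**
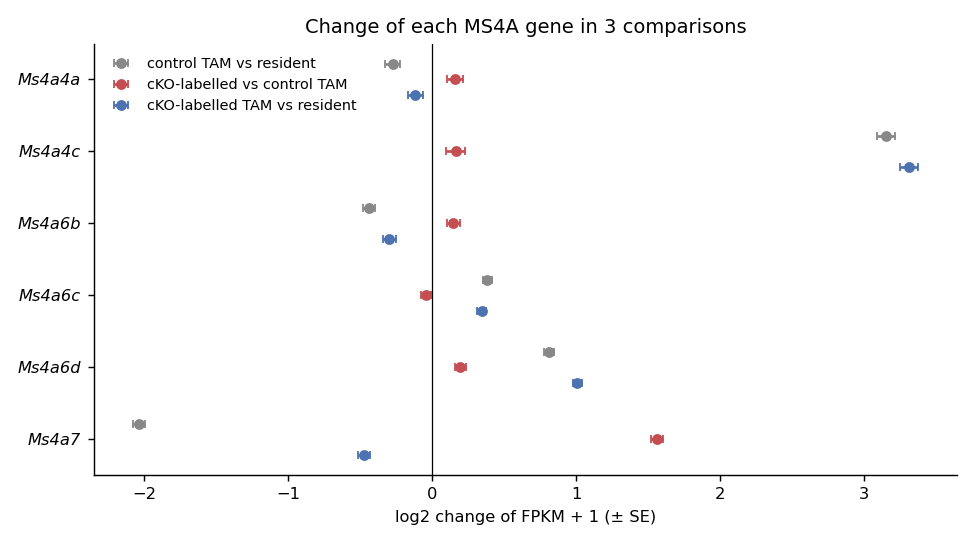
Log2 change of FPKM + 1 of each MS4A gene in the 3 comparisons, points with SE from limma. Ms4a4c is above 3 in both comparisons with resident macrophages, and Ms4a7 moves from -2.04 (control TAM against resident) to -0.48 (cKO-labelled TAM against resident), with 1.56 between the TAM groups.

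The comparison of cKO-labelled with control TAM asked what differs when Ahr is targeted in myeloid cells, and among the 6 genes Ms4a7 stood out. Its libraries were at 67.9, 70.7 and 70.9 FPKM in cKO-labelled TAM against 24.2, 22.1 and 22.7 in control TAM. All 3 cKO-labelled values were thus well above all control values, 3.04-fold in the mean, and below all 4 resident values. The log2 change was 1.56 ± 0.04 (limma adjusted p = 2.12e-13), the rank 43 from the highest of 11127 genes, and 99.5% of genes had a smaller absolute change. It was between 1.49 and 1.60 under every alternative run, and it was the only member past a 2-fold limit, which 1.01% of all genes passed upward.

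The other 5 genes differed little between the TAM groups. In all, 4 of 6 were called, where 39.6% of all genes were. All 4 were higher (Ms4a7, Ms4a6d, Ms4a4a and Ms4a6b), against 20.5% of all genes, and 0 were lower by limma, against 19.1%. At an unadjusted p under 0.05 these counts were 5 and 0, against 25.2% of all genes higher and 23.0% lower. The same 4 genes had no overlap between the groups, which held for 51.4% of all genes. Ms4a6d rose from 345.3, 332.9 and 352.3 FPKM to 374.4, 403.7 and 402.9 (log2 change 0.20 ± 0.04, adjusted p = 0.000553). Ms4a4a was at 256.6, 268.5 and 283.3 FPKM in cKO-labelled libraries, all above the control ones (log2 change 0.16 ± 0.06, adjusted p = 0.0368). Ms4a6b, at 69.0, 73.3 and 74.4 FPKM, was likewise above its 3 control libraries (log2 change 0.14 ± 0.04, adjusted p = 0.0185). For these smaller changes the distance between the groups was of the order of the range within cKO-labelled TAM.

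Ms4a4c and Ms4a6c did not pass the threshold. Ms4a4c was at 98.7, 108.0 and 108.2 FPKM in cKO-labelled TAM, and its lowest library lay below control TAM replicate 3 at 101.8 (log2 change 0.16 ± 0.07, adjusted p = 0.0628). Ms4a6c was at 159.4, 166.1 and 168.0 FPKM, within or below the control range of 166.4 to 171.4 (log2 change -0.04 ± 0.03, adjusted p = 0.380). When libraries were rescaled to the same total, 2 members were higher (Ms4a7 and Ms4a6d) and 1 lower (Ms4a6c, log2 change -0.12, adjusted p = 0.0192), and of all genes called 32.9% were then higher against 51.8%. The count of higher members was also 2 without cKO-labelled TAM replicate 2, without cKO-labelled TAM replicate 3 or without control TAM replicate 2, where Ms4a4a and Ms4a6b lost their calls. Without control TAM replicate 1 Ms4a4a alone lost its call (log2 change 0.16, adjusted p = 0.0788). Ms4a4c passed the threshold without cKO-labelled TAM replicate 1 (0.21, adjusted p = 0.0409), control TAM replicate 3 (0.22, adjusted p = 0.0211) or resident replicate 2 (0.16, adjusted p = 0.0317).

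Against resident macrophages, cKO-labelled TAM were higher for the same 3 genes as control TAM, Ms4a4c, Ms4a6d and Ms4a6c, and stood nearer to the resident level than control TAM for the other 3. This comparison shares its libraries with those above. Of the 6 members 5 were called, where 77.4% of all genes were: 3 were higher, where 40.2% of all genes were, and 2 were lower, where 37.2% were. The groups did not overlap for the same 5, against 75.5% of all genes. At a limit of 2-fold, 2 were higher (Ms4a4c and Ms4a6d), where 8.95% of all genes were, and 0 lower, where 6.17% were. Ms4a4c was 10.9-fold the resident mean (log2 change 3.31 ± 0.06, adjusted p = 8.34e-17), Ms4a6d 2.02-fold (1.01 ± 0.03, adjusted p = 1.57e-13) and Ms4a6c 1.27-fold (0.34 ± 0.03, adjusted p = 9.09e-08). Ms4a7 stood at 71.6% ± 1.72 of the resident mean (log2 change -0.48 ± 0.04, adjusted p = 2.39e-08) and Ms4a6b at 81.2% ± 3.23 (log2 change -0.30 ± 0.04, adjusted p = 9.11e-06). Ms4a4a, at 92.0% ± 4.56 of the resident mean, had overlapping libraries and did not pass the threshold (log2 change -0.12 ± 0.05, adjusted p = 0.0546). Under rescaling to the same total its change was 0.017, above 0 and not called, and without resident replicate 1 it was -0.17 and called (adjusted p = 0.000822), as it was without cKO-labelled TAM replicate 3 (-0.15, adjusted p = 0.0290).

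As parts of 1 pool, the 6 genes shifted from Ms4a4a and Ms4a7 in the healthy pancreas toward Ms4a6d and Ms4a4c in the tumour. Their summed FPKM was 814 ± 38.1 in resident macrophages (n = 4), and it was 936 ± 23.0 for control and 1075 ± 43.0 for cKO-labelled TAM (n = 3 each). Ms4a4a made up 35.9% ± 1.33 of the sum in resident macrophages, 25.8% ± 0.0936 of it in control and 25.1% ± 0.476 in cKO-labelled TAM. The share of Ms4a6d was 24.0%, 36.7% and 36.6% in the same order, and that of Ms4a4c was 1.19%, 10.0% and 9.77%. Ms4a7 was the gene whose share differed most between the TAM groups, with 11.6% to 12.3% in the resident libraries and means of 2.46% for control and 6.50% for cKO-labelled TAM. Shares within a library do not depend on how the libraries are scaled to each other, and the share of Ms4a6c, 18.1% ± 0.633 in control TAM, was 15.3% ± 0.199 in cKO-labelled TAM. These shares sum to a whole, so a larger share of 1 gene lowers the others.

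**Figure D3:**
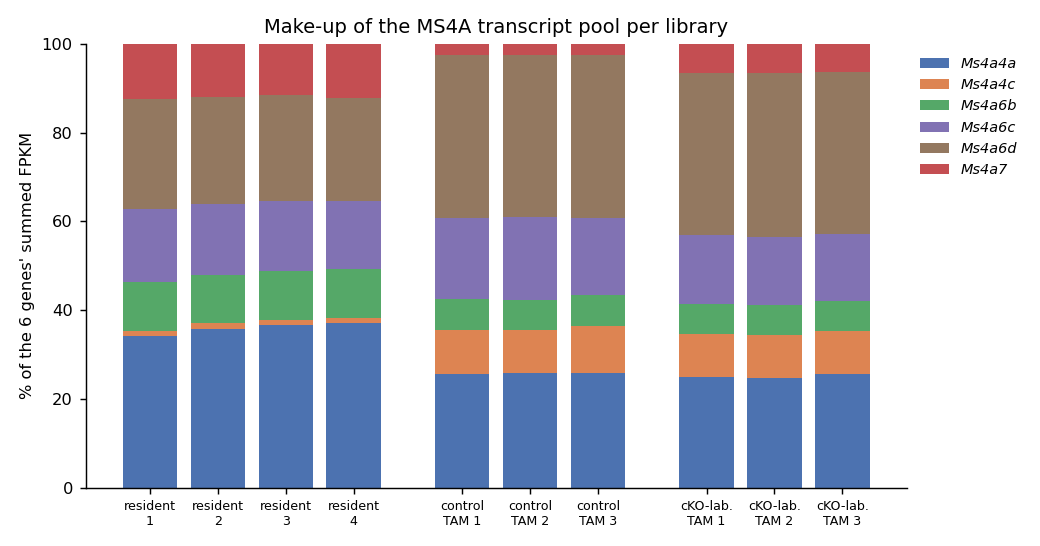
Share of each MS4A gene in the summed FPKM of the 6 genes (y axis, %), 1 stacked bar per library. The Ms4a7 share is 11.6% to 12.3% in the resident group, 2.37% to 2.57% for control TAM and 6.40% to 6.62% for cKO-labelled TAM.

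Relatives outside the 6 genes were measured too. Of 15 listed genes of the family and its structural kin, 6 were in the table and 5 were tested, and the other 9, Ms4a1 and Ms4a2 among them, were not analysed here. In control TAM against resident macrophages 1 was higher and 3 were lower, where 39.0% and 38.1% of all genes were. Between the TAM groups 2 were higher in cKO-labelled TAM and 0 lower, against 20.5% and 19.1% of all genes. Ms4a8a, described in alternatively activated macrophages, was higher in control TAM (111 ± 3.28 FPKM in resident macrophages and 178 ± 7.47 in control TAM, log2 change 0.68, adjusted p = 7.44e-11). In cKO-labelled TAM it stood at 178 ± 5.65 FPKM. Ms4a14, whose gene is the next Ms4a gene beside Ms4a7 on the same strand, gave 3.35, 3.07, 3.52 and 3.81 FPKM in resident macrophages, then 0.650, 0.510 and 0.770 for control TAM and 0.651, 0.400 and 0.499 for cKO-labelled TAM. It fell with Ms4a7 in control TAM (log2 change -1.43, adjusted p = 3.57e-10). Its resident mean was 5.34-fold that of control TAM, against 4.24-fold for Ms4a7, and log2(FPKM + 1) understates changes of such low genes. Between the TAM groups, where every Ms4a14 library was below 1 FPKM, its libraries overlapped (log2 change -0.12 ± 0.09, adjusted p = 0.350). Those of Ms4a7 did not. Ms4a4d, which was not tested, was at 1.04 ± 0.101, 0.376 ± 0.128 and 0.556 ± 0.177 FPKM.

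Tmem176a and Tmem176b, neighbouring genes of chromosome 6 that encode 4-pass proteins related to the MS4A family and known from dendritic cells, were the other 2. Tmem176a gave 403.1, 407.6, 394.0 and 397.9 FPKM in resident macrophages, then 111.9, 110.3 and 109.2 for control TAM and 264.8, 271.1 and 263.1 for cKO-labelled TAM. Its 3 groups did not overlap and stood in the same order as those of Ms4a7, with a log2 change of 1.26 ± 0.04 from control to cKO-labelled TAM. Tmem176b was at 1053 ± 19.8, 314 ± 4.08 and 663 ± 11.5 FPKM. As percentages of the resident mean, control and cKO-labelled TAM were at 27.6% and 66.5% for Tmem176a, 29.9% and 63.0% for Tmem176b and 23.6% and 71.6% for Ms4a7.

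For each member the 3 genes with the most similar profile were sought among 5463 genes with a mean of at least 10 FPKM in their highest group, by the root mean square difference (RMS) of log2(FPKM + 1) over the 10 libraries after each gene's mean was removed. For Ms4a7 these were Tmem176a (RMS 0.13), Cd79b (0.16) and Tmem176b (0.20), where the median over all genes was 0.89. Cd79b, a chain of the B cell receptor, had means of 31.7 ± 0.650, 6.07 ± 0.755 and 18.2 ± 0.440 FPKM in the 3 groups, in the order resident, control TAM, cKO-labelled TAM. Nearest to Ms4a4c were Tinagl1 (0.09), Gpr171 (0.11) and Fam101b (0.12), where the median was 1.56. These 3 genes were low in resident macrophages, with means of 0.363, 0.474 and 0.107 FPKM, against 9.67 for Ms4a4c. In control TAM they stood at 11.2, 10.9 and 8.53 FPKM, against 93.8. As log2(FPKM + 1) understates changes of such low genes, their match with Ms4a4c does not hold for fold changes in FPKM. Ms4a6d lay nearest to Rnase6 (0.04), the interferon-induced Oasl2 (0.05) and Baz1a (0.06), against a median of 0.47. Profiles of the 3 members with the smallest changes were matched closely by several genes, Snx6 for Ms4a4a (0.04), Zfp706 for Ms4a6b (0.03) and Eif4e2 for Ms4a6c (0.02). Among the members themselves the most similar pair was Ms4a4a and Ms4a6b (0.09) and the least similar Ms4a4c and Ms4a7 (2.27). The libraries fall into 3 groups, so these distances describe mainly 3 group means.

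The receptor pathway that Ms4a4a takes part in was measured through 10 genes of dectin-1 and ITAM signalling. In control TAM against resident macrophages 7 were higher and 2 lower, where 39.0% and 38.1% of all genes were (median log2 change 0.32, against 0.0017 over all genes tested). Between the TAM groups 2 were higher and 2 lower (median -0.049, against 0.012). These 2 counts are near the background, as 20.5% of all genes were higher and 19.1% lower. Clec7a, which encodes dectin-1 itself, rose in control TAM, from 78.3 ± 3.62 to 213 ± 13.5 FPKM (log2 change 1.43, adjusted p = 3.93e-13), where Ms4a4a was lower. In cKO-labelled TAM Clec7a was at 209 ± 14.7 FPKM, not past the threshold against control TAM (log2 change -0.03 ± 0.06, adjusted p = 0.741). Trem2, a lipid-sensing receptor linked to MS4A proteins in human genetics, was also higher in control TAM (33.1 ± 1.04 FPKM, log2 change 1.09 ± 0.06, adjusted p = 2.40e-10) and stood at 31.5 ± 0.959 FPKM in cKO-labelled TAM. The kinase gene Syk fell in both steps, from 70.1 ± 1.58 to 36.6 ± 0.615 FPKM in control TAM and to 33.5 ± 0.0446 in the cKO-labelled group (log2 change between the TAM groups -0.13 ± 0.04, adjusted p = 0.0141). The adaptor genes Tyrobp and Fcer1g were the 2 that were higher in cKO-labelled TAM (log2 changes 0.31 and 0.29). Among 14 tetraspanins, a separate family of 4-pass proteins, 4 were higher and 6 lower in control TAM (median log2 change -0.046), against 39.0% and 38.1% of all genes, but 7 were higher and 5 lower when rescaled to the same total (median 0.14). In cKO-labelled against control TAM 8 were higher and 2 lower (median 0.15), where 20.5% and 19.1% of all genes were. When rescaled to the same total, 6 were higher and 3 lower.

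Macrophage state genes moved beside the family. Of 20 listed markers of tissue-resident macrophages, 20 were lower in control TAM than in the resident group, as Ms4a7 was, against 38.1% of all genes. Their median log2 change was -2.93. In cKO-labelled against control TAM 16 were higher and 3 lower (median 0.78), where 20.5% and 19.1% of all genes were. Their summed FPKM was 12.7% ± 0.232 of the resident mean for control TAM and 22.0% ± 0.411 for cKO-labelled TAM, against 23.6% and 71.6% for Ms4a7. Among them the lectin gene Clec10a was at 208 ± 2.62, 26.4 ± 1.81 and 120 ± 3.02 FPKM, while the scavenger receptor gene Cd163 was at 345 ± 5.33, 11.6 ± 1.40 and 12.7 ± 0.589. Of 15 recruited monocyte genes, 13 were higher in control TAM, as the monocyte-expressed Ms4a4c was (median 3.13), against 39.0% of all genes. Between the TAM groups 3 were higher and 5 lower (median -0.11), against 20.5% and 19.1% of all genes. All 20 interferon-stimulated genes were higher in control TAM (median 1.72), again against 39.0% of all genes. Between the TAM groups 3 were higher and 6 lower (median -0.025), not far from the shares of 20.5% and 19.1% over all genes. When rescaled to the same total, 1 was higher and 8 were lower.

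The summed FPKM of the markers of 3 other cell types stood in the same order as Ms4a7, highest in resident and lowest in control TAM libraries, though not every marker did. The 5 of 9 listed B cell genes that were in the table summed to 1341 to 1363 FPKM in the resident group, 88.8 to 97.3 for control TAM and 243 to 247 for cKO-labelled TAM. Most of this sum was immunoglobulin RNA, with Ighm at 854 ± 7.55, 83.1 ± 4.18 and 220 ± 2.16 FPKM. Dendritic cell genes (7 of 10 in the table) summed to 186 to 198, 35.6 to 41.6 and 81.5 to 86.8 FPKM, mainly through Cd209a, which the resident macrophage list also holds, and Batf3. Against resident macrophages, 4 of 5 B cell and 4 of 7 dendritic cell genes were lower in control TAM, where 38.1% of all genes were. Cd22 (log2 change 0.09), Flt3 (-0.13) and Fscn1 (0.02) did not pass the threshold, and Dpp4 was higher (0.68, adjusted p = 3.48e-07). Acinar enzyme genes (13 of 14 in the table) summed to 27923 to 29792, 84.3 to 90.5 and 341 to 353 FPKM, and Amy2a5 was listed at 0 in every control TAM library. Of the tested genes, 4 of 5 B cell, 4 of 7 dendritic cell and 12 of 12 acinar genes were higher in cKO-labelled than in control TAM. Over all genes the share was 20.5%. The part of these cells in the Ms4a7 and Tmem176 values was not tested. For Ms4a4c, Ms4a6d and Ms4a6c, which were higher in both TAM groups, markers of 6 other cell types had higher sums there too, though not every marker did. Against resident macrophages, 9 of 9 tested epithelial, 6 of 7 fibroblast and 8 of 10 neutrophil genes were higher in control TAM. So were 4 of 5 eosinophil, 7 of 8 T and NK cell and 1 of 1 mast cell genes, against 39.0% of all genes. Ear2 (log2 change -1.69), Mmp9 (-2.96) and Cd4 (-1.61) were lower there, and Lum (-0.01) and Csf3r (0.03) did not pass the threshold. Epithelial genes (9 of 11 in the table) summed to 9.55 to 11.2 FPKM in resident, 272 to 279 in control and 276 to 290 in cKO-labelled TAM libraries. Fibroblast genes (9 of 10) gave 46.4 to 50.3, 223 to 229 and 183 to 185 FPKM, and neutrophil genes (10 of 11) 360 to 369, 1291 to 1318 and 1630 to 1792. Eosinophil genes (5 of 8) gave 45.7 to 59.5, 88.7 to 91.7 and 132 to 133 FPKM, with Prg2 listed at 0 in every resident library. T and NK cell genes (9 of 12) summed to 9.03 to 9.89, 13.9 to 16.6 and 21.3 to 22.4 FPKM, and the 2 of 8 mast cell genes in the table to 0.444 to 0.697, 12.98 to 13.09 and 12.69 to 13.31. The part of these 6 cell types in the values of Ms4a4c, Ms4a6d and Ms4a6c was not tested.

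**Figure D4:**
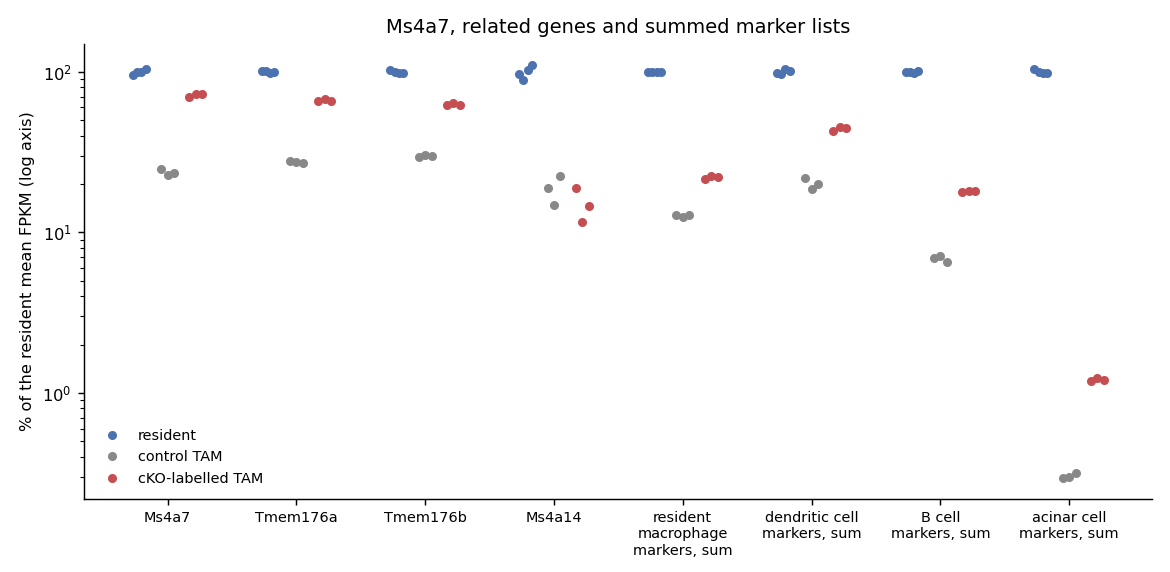
Level in every library as a percentage of the resident mean (log axis) for Ms4a7, Tmem176a, Tmem176b, Ms4a14 and the summed FPKM of 4 marker lists, coloured by group. Except for Ms4a14, each item is lowest in control TAM and between the other groups in cKO-labelled TAM, with Ms4a7 at 69.6% to 72.7% and the acinar sum at 1.19% to 1.24%.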

How the data were processed

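The 10 RNA-seq libraries were made with SMART-Seq v4 and Nextera XT after extraction with 1 of 2 kits, per the labels' protocols, and hold no strand information. The authors deposited 1 table of FPKM, that is, fragments relative to gene length and library size. The submitters' processing notes name STAR, edgeR and GRCm38 (mm10) without version or role. How genes were measured in length and libraries scaled is not given in the sources used here. Columns were matched to samples by title, and all 10 were used.

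Genes at 1 FPKM or more in at least 3 libraries (11127 of 12535) were fitted with limma 3.58.1 (R 4.3.3) on log2(FPKM + 1), with 3 group means, 7 residual degrees of freedom, a variance trend and Benjamini-Hochberg adjustment at 0.05. This scale understates changes of low genes. Depth was estimated from whole multiples of 1 read's value: with the longest annotated transcript as length, 85.8% to 87.3% of low values came out whole within 0.05. Over 12 same-group pairs, libraries differed by 1.80 to 3.25 times counting noise, so none was counted as a duplicate. This check cannot tell libraries of separate animals from separate libraries of a shared RNA sample. The fit was tested on simulated data.

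Members and gene lists were chosen with earlier results of these data known. Named genes are the 6 members, listed relatives in the table, the 3 nearest profiles, Clec7a, Syk, Trem2 and Tyrobp, the largest changes per list and the 2 most abundant markers per cell type, and the text names part of them. Adgre1, Ahr, BE692007, Amy2a5, Cd22, Flt3, Fscn1, Dpp4, Lum and Csf3r were added after their values were seen. Alternatives were other pseudocounts, filters, scalings and variance models, only the 2 groups compared, the replicate number as a block, each library left out in turn and a 2-fold limit; rescaling without acinar genes was added after seeing the data.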

Additional observations from a re-analysis of the deposited data

How the results depend on the processing

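Ms4a7 and Ms4a6d kept direction and call in all 3 comparisons under all alternatives other than the 2-fold limit, as did Ms4a4c and Ms4a6c against resident macrophages and Ms4a6b in both comparisons with them. At a 2-fold limit 1 member was higher and 1 lower in control TAM against resident, 1 was higher between the TAM groups, and 0 were lower in cKO-labelled TAM against resident. Between the TAM groups, 2 members were higher and 1 lower under rescaling to a common total, with or without acinar genes, and 2 were higher with no variance trend and 2 to 5 when single libraries were left out.

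Between the TAM groups, Ms4a4a was not called when rescaled (0.079, and 0.080 without acinar genes), quantile normalized (0.12) or with no variance trend (0.16), and ranged from 0.12 to 0.19 with single libraries left out. Ms4a6b was not called when rescaled (0.067, and 0.068 without acinar genes) or with no variance trend (0.14), and ranged from 0.12 to 0.18. Ms4a4c was called with only the 2 groups fitted (0.16) or array weights (0.17), and ranged from 0.12 to 0.22. Ms4a6c was called lower when rescaled (-0.12, and -0.12 without acinar genes). Against resident macrophages, Ms4a4a in control TAM was not called when rescaled (-0.063). In cKO-labelled TAM it turned to 0.017 when rescaled (adjusted p = 0.798), was called lower under quantile normalization (-0.26), median-of-ratios scaling (-0.15) and array weights (-0.13), and ranged from -0.17 to -0.083. The cause was not tested.

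The replicate number as a block left every member's call as it was, with the Ms4a7 change between the TAM groups at 1.56. Deviations of same-numbered libraries correlated at -0.06 to 0.11 over 9 pairs, and of other pairs at -0.15 to 0.13, so the numbers do not pair the libraries. Precision is limited by 3 or 4 libraries per group and, for Ms4a4c in resident macrophages, by about 198 to 237 reads.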
